A study of Mus musculus with 2 samples.

Results

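The 10 imprinted growth genes described here were chosen by name from the count table of primary and cultured costal-cartilage cells: Igf2, Dlk1, Cdkn1c, Peg3, Mest, Grb10, Plagl1, Igf2r, Ndn and Sgce. All 10 were among its 21849 features, and all 10 passed the minimum level of 10 counts per 1000000 UMIs (CPM) used below. Of them, 7 are known as paternally expressed in mouse (all but Cdkn1c, Grb10 and Igf2r), but the reads here do not tell the parental copies apart, so each value is the sum of both. Imprinted genes are transcribed mainly from 1 parental copy, the other copy being silenced by DNA methylation or by a nearby non-coding RNA set up in the parent's germ line. Many of them set the size of the fetus and the newborn: paternally expressed genes such as Igf2 tend to drive growth, and maternally expressed genes such as Cdkn1c, Grb10 and Igf2r tend to restrain it. In rib and limb cartilage they act while the growth plate is active, and many are switched down after birth.

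Transcripts were counted as unique molecular identifiers (UMIs) in 1 droplet library of primary and 1 library of cultured costal-cartilage-derived stem cells (CDSCs) of mouse. Per the study's methods, CDSCs were the CD45-CD51+ cells sorted after collagenase digestion of rib cartilage from newborn C57BL/6J mice of a CD45.1 or a ZsGreen line. The cultured cells were the same kind of cell grown in medium with serum and taken at passages 2 to 3. The labels name bone marrow as the tissue of both libraries and do not give the strain, sex or number of animals of either. ZsGreen had 60957 UMIs in primary and 0 in cultured cells, and the Y-linked Uty stood at 0.0802 and 61.2 CPM, so the libraries differed in donor as well as in culture, and these cannot be told apart.

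After filtering, 11746 primary and 5338 cultured barcodes remained, with medians of 10026.5 and 56864.5 UMIs per cell. Most cultured barcodes, 5460 of 10798, failed the filter, against 150 of 11896 primary barcodes, and 15 barcode sequences were shared among the kept cells of both libraries. The sort marker Itgav (CD51) was present in both, at 92.5 and 109 CPM, and Ptprc (CD45) was under 1 CPM in both. All 12 chondrocyte markers were lower by 4-fold or more in culture, with a summed level of 87761 CPM in primary and 591 CPM in cultured cells, so every difference below lies between cartilage cells and cells with few cartilage matrix transcripts. Each group is 1 library. Cells of a library are not replicates, no test between the groups was possible, and the intervals given (95%, exact) cover counting error only.

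The imprinted growth genes divided into 4 that were far lower in cultured cells and 6 that were within 2.49-fold of their primary level. Dlk1, Cdkn1c, Plagl1 and Peg3 were 39.1-, 18.7-, 10.4- and 5.13-fold lower, and no member was 4-fold higher. Of the 9115 genes that reached 10 CPM in 1 library or both, 5.73% were lower by 4-fold or more in culture and 10.6% were higher by as much. By direction alone, 8 members were lower and 2 (Mest and Grb10) higher. Of all 9115 genes, 34.6% had a log2 ratio of cultured over primary CPM below -0.023, and 36.9% had one below 0.041. The median log2 ratio of cultured over primary CPM was -0.60 over the members and 0.37 over all 9115 genes, and 9 of the 10 members lay below the median of all genes. The members' summed level was 5800 CPM in primary and 1685 CPM in cultured cells. Of the paternally expressed members 3 of 7, and of the maternally expressed members 1 of 3, were at least 4-fold lower, so both parental classes were represented.

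**Figure D1:**
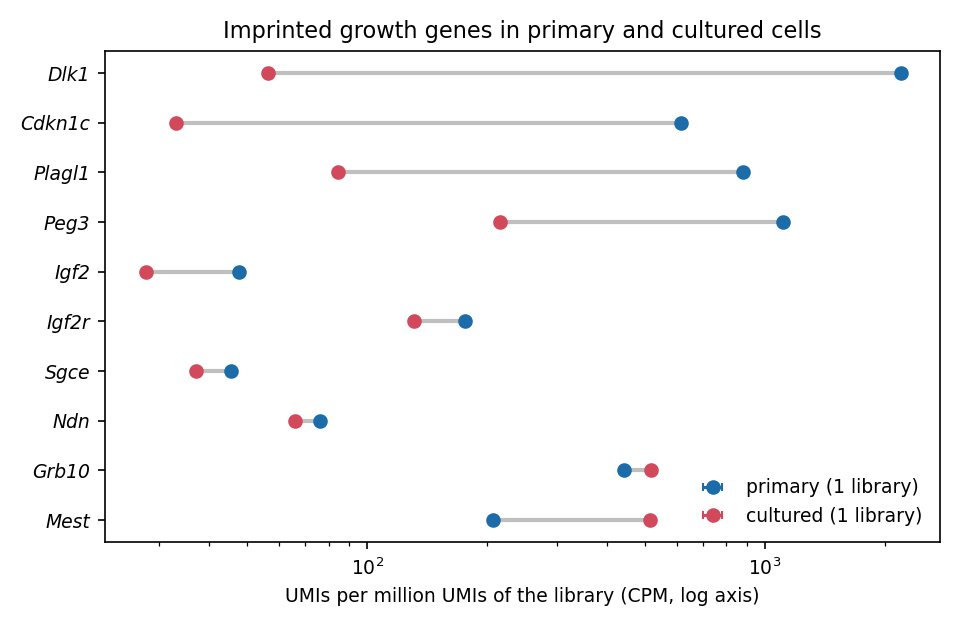
Level of each of the 10 genes in the primary (blue) and the cultured (red) library, in CPM on a log axis, with exact 95% Poisson intervals that are mostly narrower than the points. Dlk1, Cdkn1c, Plagl1 and Peg3 have the longest gaps, the 6 others lie close together, and Mest and Grb10 are higher in cultured cells.

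The sequences before the transcription starts show how different the starts of these genes are. Stretches for 5 are printed, for the genes on which the contrast turns: 3 that were much lower in cultured cells, the member that was most above its primary level (Mest), and one that hardly differed (Grb10). They were taken from the RefSeq promoter windows of GRCm38.p6, read 5′ to 3′ towards the gene, with every CpG in capitals, and only stretches outside exons annotated by GENCODE M21 are shown. For Peg3 the stretch is all that lies between the annotated starts of Peg3 and Usp29, which are transcribed away from each other. For Plagl1 the 141 bases next to the start lie in annotated exons and were left out. The RefSeq starts used for Plagl1, Mest and Grb10 lie inside the GENCODE spans of these genes.
Peg3 (towards Peg3) and Usp29 (reverse), chr7:6730432-6730577, - strand: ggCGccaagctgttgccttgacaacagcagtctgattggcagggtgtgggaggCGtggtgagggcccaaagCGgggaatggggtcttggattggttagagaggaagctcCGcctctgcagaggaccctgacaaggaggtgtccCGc
Dlk1, chr12:109452573-109452822, + strand: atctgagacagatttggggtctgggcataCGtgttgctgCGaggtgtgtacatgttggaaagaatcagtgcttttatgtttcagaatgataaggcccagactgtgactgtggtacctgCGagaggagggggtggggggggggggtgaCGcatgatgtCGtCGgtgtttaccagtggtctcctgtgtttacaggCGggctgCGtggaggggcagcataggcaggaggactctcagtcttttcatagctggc
Plagl1, chr10:13090582-13090690, + strand: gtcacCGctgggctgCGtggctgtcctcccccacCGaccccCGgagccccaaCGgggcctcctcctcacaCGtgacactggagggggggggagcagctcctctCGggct
Mest, chr6:30737800-30738049, + strand: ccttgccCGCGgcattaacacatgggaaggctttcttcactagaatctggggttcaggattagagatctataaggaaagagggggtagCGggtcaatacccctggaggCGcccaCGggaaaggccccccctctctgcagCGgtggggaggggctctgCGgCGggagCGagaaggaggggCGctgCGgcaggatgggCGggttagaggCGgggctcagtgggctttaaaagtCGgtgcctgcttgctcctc
Grb10, chr11:12037421-12037670, - strand: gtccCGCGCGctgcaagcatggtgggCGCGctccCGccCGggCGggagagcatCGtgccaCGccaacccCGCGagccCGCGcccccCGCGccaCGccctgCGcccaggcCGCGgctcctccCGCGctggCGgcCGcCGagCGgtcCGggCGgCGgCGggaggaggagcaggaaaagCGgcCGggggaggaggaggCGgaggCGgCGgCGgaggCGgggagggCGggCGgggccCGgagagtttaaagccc

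CpGs, the bases at which imprints are laid down, numbered 8 in the 250 bases before Dlk1, 14 in those before the Mest start and 40 in those before the Grb10 start. The median over all 32851 promoter windows of the same length was 6, and 98.7% of them held fewer than the Grb10 window. The whole 250-base windows of Plagl1 and Peg3 held 19 and 8 CpGs. Of the printed stretches, the 109 bases for Plagl1 held 7 CpGs and the 146 bases between Peg3 and Usp29 held 5. Other starts of the same genes differed, with 8 CpGs in another Grb10 window and 7 in another Mest window. RefSeq gave 14 windows for 8 members (several have alternative starts, and a pair of Mest windows overlap), with none for Cdkn1c and Sgce. The letters GGGGCC, on either strand, occurred in 8 of these 14 windows and in 22.0% of all windows. TATAAA, on either strand, occurred in 0 of the 14 and in 12.4% of all windows. These are descriptions of sequence and no measure of methylation or binding, which were not assayed.

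Igf2 and the genes of its reception came within 2-fold between the libraries, while the ligand Igf1 did not. Igf2 (chr7:142650766-142666816 on the - strand, GRCm38) encodes insulin-like growth factor 2, the main fetal growth factor of the insulin family. It stood at 47.7 CPM (46.6 to 48.9) in primary and 27.9 CPM (27.3 to 28.4) in cultured cells, 1.71-fold lower. With every cell thinned to 5000 UMIs, to set the libraries at equal depth, 19.6% of 10959 primary and 12.0% of 4543 cultured cells held an Igf2 UMI (787 and 795 shallower cells were left out). Without thinning the order turned, to 37.1% and 41.8%, the cultured cells having more UMIs each. Igf2 shares its strand with the gene model Gm49394, which had 1 and 4 UMIs, and reads that fit both models may not have been counted for either, so the Igf2 level is uncertain.

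Igf2r, on chr17:12682406-12769664, encodes the receptor that carries IGF2 to the lysosome for destruction and so lowers the free ligand. It was at 176 CPM (174 to 178) in primary and 131 CPM (130 to 132) in cultured cells, 1.34-fold lower, and at equal depth was found in 55.9% and 45.4% of cells. Grb10 (chr11:11930508-12038683) encodes an adaptor that binds the activated insulin and IGF1 receptors and dampens their signal. It was almost level, at 442 CPM (439 to 446) and 518 CPM (516 to 520), a log2 ratio of 0.23, and at equal depth was found in 81.9% and 83.8% of cells. The 4 genes listed as receptors and transducers of IGF2 did not differ by 2-fold either: Igf1r, the signalling receptor of both IGFs, was at 214 and 339 CPM, Insr at 37.5 and 30.8 CPM, Irs1 at 119 and 76.6 CPM and Irs2 at 50.4 and 35.6 CPM. The non-imprinted ligand was different: Igf1 stood at 8.49 CPM in primary and 46.6 CPM in cultured cells, a log2 ratio of 2.46 against -0.78 for Igf2.

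Dlk1 had the largest difference of the 10. It lies on chr12:109452823-109463336 and encodes a transmembrane protein related to the Notch ligands that holds progenitors of fat and other mesenchymal cells undifferentiated and is found in young chondrocytes. Its level was 2200 CPM (2192 to 2207) in primary and 56.3 CPM (55.5 to 57.1) in cultured cells, a log2 ratio of -5.29 (-5.31 to -5.27), which is lower than that of all but 1.24% of the 9115 genes. At equal depth, 98.8% of primary and 18.5% of cultured cells held a Dlk1 UMI, with medians of 10 and 0 UMIs per cell. A difference in both the level and the share of cells was therefore present. Dlk2, its non-imprinted relative, went the other way, from 0.445 to 14.8 CPM.

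Cdkn1c, on chr7:143458339-143461050, encodes p57KIP2, an inhibitor of cyclin-dependent kinases that lets chondrocytes leave the cell cycle. It was at 616 CPM (612 to 620.5) in primary and 33.0 CPM (32.4 to 33.6) in cultured cells, a log2 ratio of -4.22 (-4.25 to -4.19). At equal depth, 79.6% of primary and 14.3% of cultured cells held a UMI. Its 2 relatives with the same biochemical function were not lower: Cdkn1a (p21) was at 460 and 638 CPM, and Cdkn1b (p27) at 21.7 and 54.3 CPM. Of the genes of the G2 and M phases with at least 10 CPM, 13 of 20 were at least 4-fold higher in cultured cells and 0 lower. Of those of the S phase, 4 of 17 were higher and 1 lower by as much. Of all genes, 10.6% were higher and 5.73% lower. The part of these cell cycle genes in the Cdkn1c difference between the libraries was not tested.

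Plagl1 and Peg3 encode zinc-finger proteins, and both were lower. Plagl1 (chr10:13060504-13131694), also called Zac1, is a transcription factor that acts on other imprinted genes. It was at 879 CPM (874 to 884) in primary and 84.6 CPM (83.6 to 85.6) in cultured cells, and at equal depth 93.6% and 32.1% of cells held a UMI. Peg3 (chr7:6703892-6730431) was at 1110.1 CPM (1105 to 1116) and 216 CPM (215 to 218), and 97.7% and 39.6% of cells held a UMI. The paralogs of Plagl1 were weakly expressed, Plag1 at 3.74 and 9.23 CPM and Plagl2 at 7.44 and 10.2 CPM.

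The remaining members differed less. Mest (chr6:30723547-30748465), an enzyme-like protein of the alpha/beta hydrolase fold that is abundant in embryonic mesoderm, was the member most above its primary level, at 207 CPM (205 to 210) and 515 CPM (513 to 518). At equal depth, 54.4% of primary and 61.7% of cultured cells held a Mest UMI, so the share of cells differed less than the level. Ndn (chr7:62346569-62350262), a MAGE-family growth suppressor, was at 76.1 and 66.0 CPM, and Sgce (chr6:4674350-4747207), which encodes epsilon-sarcoglycan of the membrane complex around dystrophin, at 45.6 and 37.1 CPM. Of the sarcoglycans outside imprinted loci, Sgcd was likewise level, at 184 and 172 CPM, and Sgcb was at 10.0 and 25.4 CPM. Mest and Copg2 overlap on opposite strands, as do Igf2r and Airn, and without a statement that strand was used in counting their reads cannot be told apart.

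At equal depth, 8 of the 10 genes were found in a smaller share of cultured than of primary cells, the exceptions being Mest and Grb10, whereas without thinning only 5 were. For how many of all genes the same held was not counted, so these counts are not read as particular to the members. UMIs that stem from other cells, as free RNA or in doublets, may limit these shares, and neither was tested. In the primary library, 26 cells with several vessel or mast cell markers had a median of 9403 UMIs, near that of the others, and at equal depth Col2a1, the cartilage collagen that such cells should lack, was found in all 18 of them. Dlk1 was found in 66.7% (41.0 to 86.7) of those 18 cells, Peg3 in 83.3% (58.6 to 96.4) and Cdkn1c in 66.7% (41.0 to 86.7). The shares of Dlk1 and Peg3 in the whole primary library lay above these intervals, and that of Cdkn1c lay within. In the cultured library, 13 cells with blood markers had a median of 33464 UMIs against 56984 in the others, and 0 of 10 at equal depth held a Dlk1 UMI, which allows a share of up to 30.8%, while Cdkn1c was found in 10.0% (0.253 to 44.5) and Peg3 in 2 of 10 (2.52% to 55.6%). These intervals hold the cultured shares of Dlk1, Cdkn1c and Peg3. With 10 cells they are wide, so the low shares in culture could not be told apart from those of the cells with blood markers. For Peg3 these cells give no low reference, since over all 13 it stood at 338 CPM (286 to 396), against 216 CPM in the library. The thresholds that picked these cells were set after seeing the data.

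**Figure D2:**
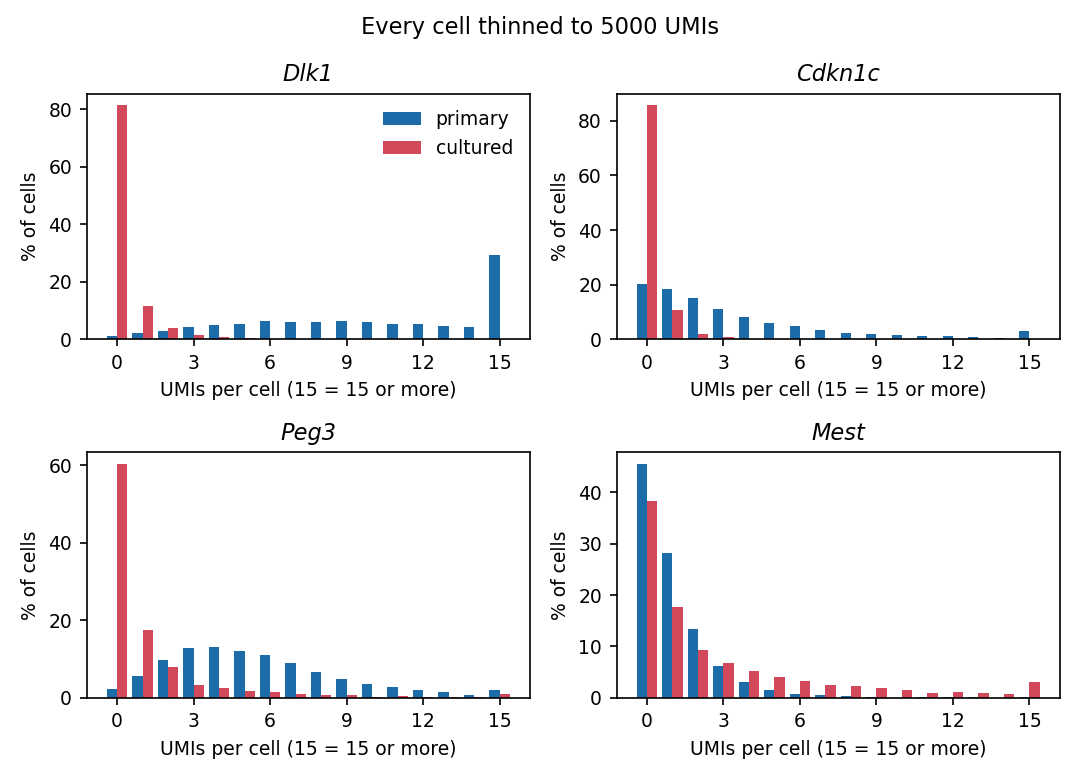
Share of cells (vertical axis, %) by the number of UMIs of Dlk1, Cdkn1c, Peg3 and Mest per cell (horizontal axis), with every cell thinned to 5000 UMIs, in the primary (blue) and cultured (red) library. The cultured cells pile up at 0 for Dlk1, Cdkn1c and Peg3, while Mest has a long right tail, with 22.5% of cultured cells at 5 or more UMIs.

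The cells of a library did not share 1 level. Variance over mean at 5000 UMIs per cell, which is 1 for pure counting noise, was 6.58 for Mest and 5.98 for Peg3 in cultured cells, above 99.4% and 99.3% of the 6492 genes with a mean of at least 0.1 UMI. In the primary library the same ratio was 2.35 for Mest and 2.18 for Peg3, and was widest for Cdkn1c (5.28) and Dlk1 (4.82). In cultured cells Peg3 was therefore patchy: 60.4% of the cells had no Peg3 UMI, and 8.12% had at least 5. Ndn and Sgce lay near counting noise in both libraries, at 1.18 and 1.10 in primary and 1.06 and 1.07 in cultured cells.

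Levels were then compared across clusters that had been made within each library without any imprinted gene. Clusters are not replicates, and these are descriptions. Of the 10 primary clusters, 9 were chondrocyte-like, and the other (288 cells) had markers of fibroblasts, tenocytes, vessels and mast cells together and was left unnamed. In the cultured library no cluster could be named but a haematopoietic-like one of 9 cells, and 9 clusters had at least 50 cells. For Dlk1, Cdkn1c, Peg3 and Plagl1 the lowest primary cluster lay above the highest cultured one. How many of all genes were separated in this way was not counted, so the separation is not read as particular to these members. The bounding values were 1294 and 86.5 CPM for Dlk1, 186 and 89.7 CPM for Cdkn1c, 819.5 and 446 CPM for Peg3, and 501 and 147 CPM for Plagl1. The clusters of the 6 other members overlapped between the libraries.

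**Figure D3:**
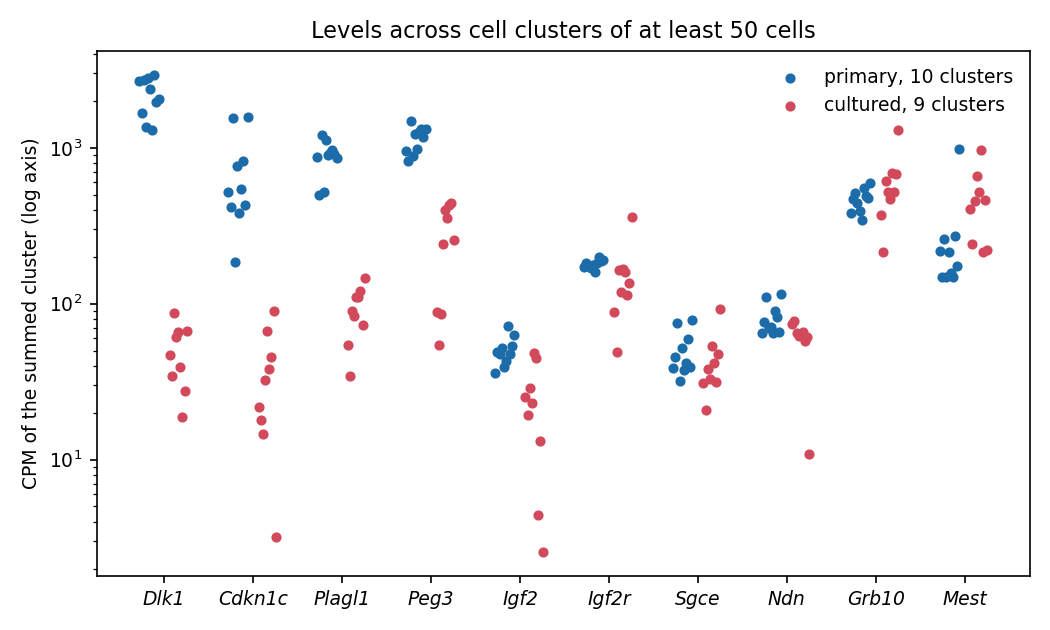
Level of each gene (vertical axis, CPM of the summed cells, log axis) in the 10 primary (blue) and 9 cultured (red) clusters of at least 50 cells. The colours are separated for Dlk1, Cdkn1c, Plagl1 and Peg3 and overlap for the other genes. Igf2 and Cdkn1c have the widest spread among cultured clusters, but their lowest point is a cluster of 51 cells with 4 Igf2 and 5 Cdkn1c UMIs.

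Among primary cells, Cdkn1c varied most. It was at 186 CPM in the cluster with Acta2 and Grem1 among its top genes and at 380.4 to 820.1 CPM in most clusters. The level was 1551 CPM in the cluster with Clu, Cilp2 and Prg4 among its top genes, and 1586 CPM in the unnamed mixed cluster. Prg4 was also a top gene of a cluster with Cdkn1c at 761 CPM. Dlk1 ranged from 1294 CPM in the cluster with Runx3 and Wnt5b among its top genes to 2950 CPM in a cluster led by the heat shock gene Hspa1a. Peg3 (819.5 to 1480.4 CPM) and Plagl1 (501 to 1210.4 CPM) were lowest in the dividing cluster led by Pbk and Cenpf and highest in the Clu, Cilp2 and Prg4 cluster. Mest was at 977 CPM in the mixed cluster and at 148 to 270.4 CPM in the 9 others, so in primary tissue its highest level was outside the chondrocyte-like cells.

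Among cultured cells the order was different. Peg3 was at 85.9 to 88.2 CPM in the clusters led by Hmcn1 and Il1rl1 and by Klk8, and at 356 to 428 CPM in those led by Mmp13, Cyp26b1 and Nr5a2. Mest peaked at 964 CPM in the Cyp26b1 cluster and was at 215 CPM in the Nr5a2 cluster. Igf2 was at 47.9 CPM in the Mmp13 cluster, as high as the primary library as a whole, and at 4.39 CPM in the Nr5a2 cluster. A cluster of 915 barcodes with a median of only 1304 UMIs was low for most members, with Peg3 at 54.5 CPM and Grb10 at 213 CPM. The genes whose profile across the 10 primary clusters was most like that of Dlk1 were Wif1 (Pearson r = 0.95), Cytl1 (0.95) and Arl4a (0.91), out of 4431 compared by log2(CPM + 1). For Cdkn1c they were Bod1l, Sirt2 and Cald1 (each 0.97), and for Peg3 Zfp609, Ppp3ca (each 0.97) and Dcaf8 (0.96). For Mest, over the 9 cultured clusters, the closest was Fam98b (0.84). All points of such a profile come from 1 library, and no p-value is given.

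The neighbours of the members on the chromosome did not follow 1 pattern. In the Peg3 domain every measured imprinted gene was lower. Usp29, whose start lies 0.147 kb from that of Peg3 and which is also paternally expressed, was at 73.5 CPM in primary and 4.36 CPM in cultured cells, a log2 ratio of -4.07. Zim1, the maternally expressed gene 7.44 kb away, was at 95.1 and 7.63 CPM, a log2 ratio of -3.64. Both ratios were further from 0 than that of Peg3 (-2.36). In the Dlk1 domain, by contrast, Rtl1 was at 10.0 and 6.82 CPM (log2 ratio -0.56), and the distant Dio3 was higher in culture, at 0.489 and 2.41 CPM (2.30). Meg3 and Rian of that domain were not analysed here.

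Around Cdkn1c, Phlda2, another maternally expressed growth restrainer, was at 3.47 and 1.11 CPM (log2 ratio -1.64), and Kcnq1 at 48.6 and 14.4 CPM (-1.76). Slc22a18 and Ascl2 were higher in culture from low levels, with log2 ratios of 2.84 and 2.74. Tssc4 and Cd81, on the same chromosome further away, were at log2 ratios of -0.24 and 0.82, so the Cdkn1c domain held genes in both directions. Next to Ndn, Magel2 had 308 UMIs in primary and 2 in cultured cells (95% interval of the log2 ratio -11.59 to -6.67), while Ndn itself differed by 1.15-fold. Snrpn was at 2.03 and 12.1 CPM (2.58), but it shares its strand with Snurf and is uncertain. Peg10, which starts 0.099 kb from Sgce, was at 8.34 and 3.48 CPM (-1.26), against -0.30 for Sgce. Ppp1r9a in the same domain was at 48.9 and 6.81 CPM (-2.84). Copg2, which overlaps Mest, was at 20.4 and 33.2 CPM (0.71), while Klf14 of the same domain was at 5.55 and 0.460 CPM (-3.59). Ddc, beside Grb10, was at 2.78 and 0.288 CPM (-3.27). Asb4 in the Sgce domain was at 37.1 and 9.50 CPM (-1.97), and Peg12 and Ube3a in the Ndn domain had log2 ratios of 0.14 and 0.42. Ins2, Mkrn3, Tfpi2, Calcr, Slc22a2 and Slc22a3 were under 1 CPM in both libraries.

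**Figure D4:**
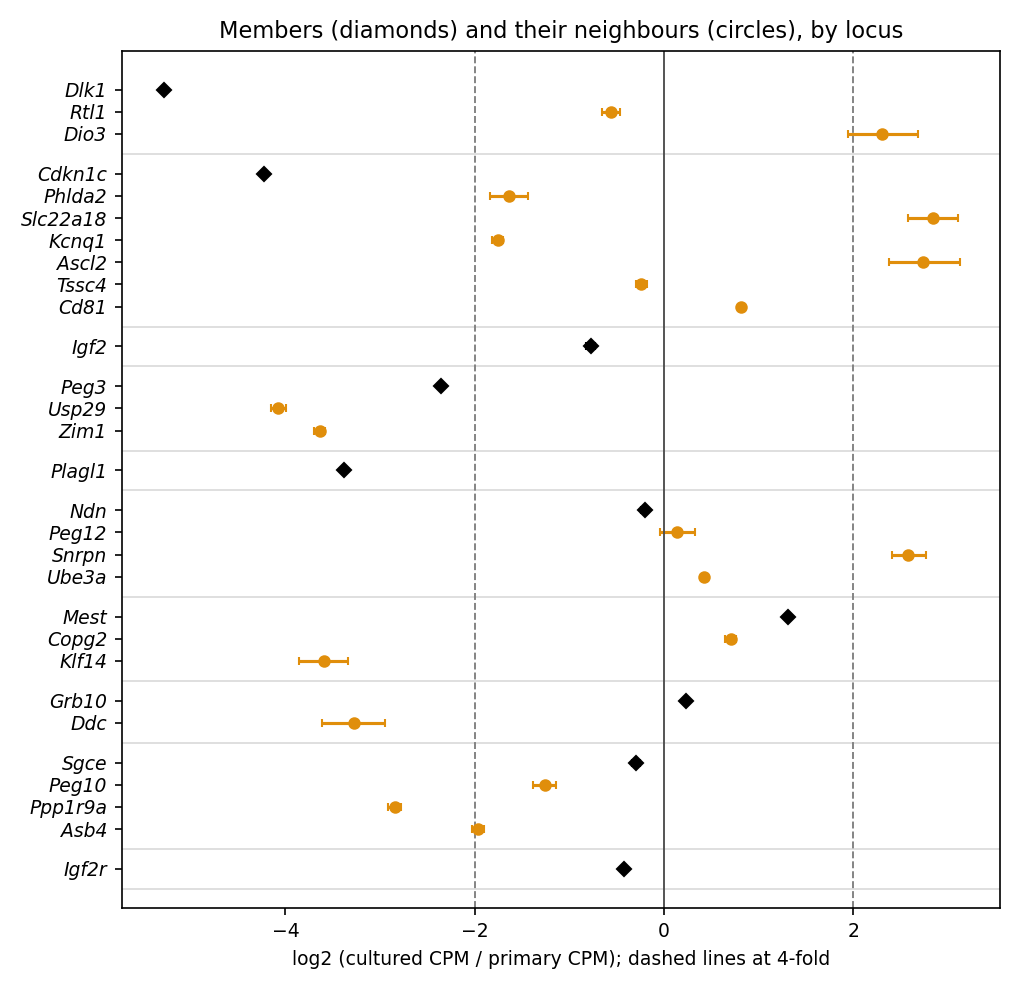
Log2 ratio of cultured over primary CPM for the 10 genes (black diamonds) and for imprinted neighbours with at least 1 CPM in either library and at least 4 UMIs in both (orange circles), grouped by locus, with exact 95% intervals and dashed lines at 4-fold. All 3 genes of the Peg3 domain lie left of the 4-fold line, whereas the Cdkn1c, Dlk1 and Ndn groups have genes on both sides of 0.

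Of a list of 52 other imprinted genes, 43 were in the table and 22 had at least 10 CPM in either library. Of these 22, 6 were lower by 4-fold or more in culture, with 5.73% of all genes as background, and 1 (Snrpn) was at least 4-fold higher, with 10.6% as background. The 6 were Zdbf2 (68.7 and 2.77 CPM), Dcn (1375 and 65.5 CPM), Usp29, Zim1, Ppp1r9a and Slc38a4 (29.4 and 5.80 CPM). Dcn encodes decorin, a proteoglycan of cartilage and other matrix. Of the 22, 11 were within 2-fold, among them Gnas and H13. The median log2 ratio of the 22 was 0.01, against 0.37 over all 9115 genes with at least 10 CPM. Over the 40 genes of the list for which a ratio was given, with no minimum level, the median was -0.44. Over all 17307 genes with a ratio and no minimum level it was 0.21. Of the members' 10 close relatives outside imprinted loci that had at least 10 CPM, 0 were 4-fold lower and 3 were 4-fold higher (Grb14, Dlk2 and Igf1), with a median log2 ratio of 1.33.

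Within single cultured cells, Usp29 and Zim1 were higher in cells with Peg3 UMIs. Cells were split, after seeing the spread of Peg3, into 638 with at least 3 Peg3 UMIs and 2745 with none, all thinned to 5000 UMIs. Usp29 had 87 UMIs in the first and 14 in the second set, a ratio per cell of 26.7 (15.1 to 50.9), and Zim1 had a ratio of 15.5 (10.7 to 22.9). Of the members in other loci, Cdkn1c had a ratio of 4.39 (3.77 to 5.11), Igf2 2.18, Plagl1 2.11, Mest 2.02, Dlk1 1.69, Igf2r 1.64 and Sgce 1.38. Grb10 was nearly level at 1.10 (1.04 to 1.16), and Ndn was at 0.883 (0.754 to 1.03). In primary cells the same split (9015 and 255 cells) gave ratios of 2.38 for Usp29 and 2.01 for Zim1, and of 1.06 to 1.42 for the other members.

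The split was repeated inside 7 cultured clusters, in which 4.10% to 27.3% of cells had at least 3 Peg3 UMIs. The interval for Usp29 lay above 1 in 7 of 7 clusters, as did that for Zim1, with Zim1 ratios between 5.96 and 33.9. For Usp29 the ratios were 11.9 to 28.3 in the 6 clusters with UMIs in both sets. Several of these rest on few UMIs: in the Mmp13 cluster Usp29 had 34 UMIs in 198 cells with Peg3 and 2 UMIs in 301 without. The interval for Cdkn1c lay above 1 in 6 of 7 clusters (ratios 1.44 to 5.78), that for Mest in 7 of 7 (1.54 to 2.92), that for Plagl1 in 6 of 7 and that for Igf2 in 3 of 7. Doublets and cell size were not tested as part of these ratios. How many of all genes were higher in cells with Peg3 was not counted. These ratios and counts of clusters are therefore not read as particular to the Peg3 domain or to the members. Cells are not replicates, and the intervals leave out the spread between cells, which for Mest and Peg3 was far above counting noise. Across all cells, pairs of members were only weakly correlated, the highest Spearman rho being 0.23 for Dlk1 and Cdkn1c in primary and 0.21 for Peg3 and Mest in cultured cells.

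**Figure D5:**
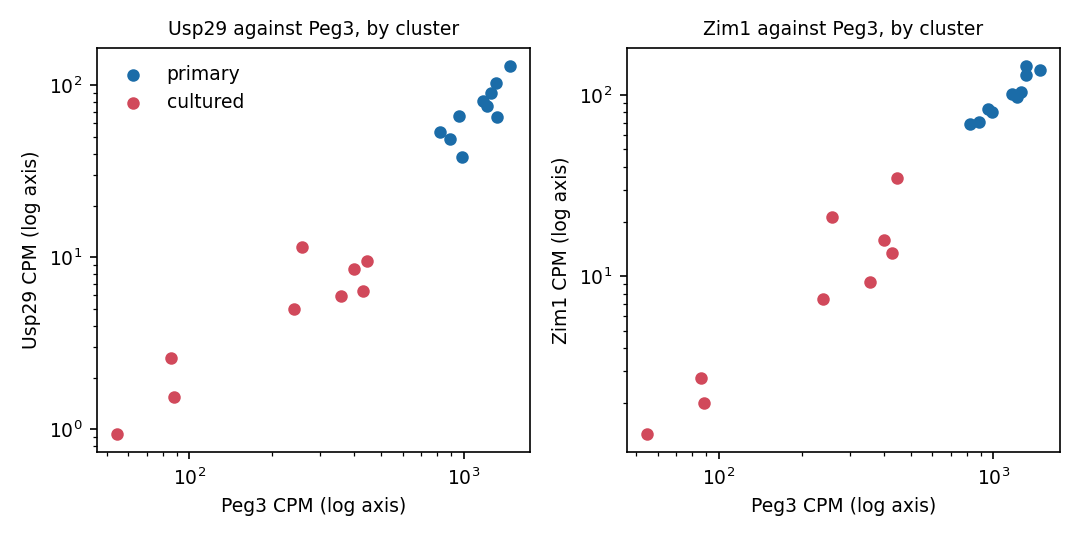
Level of Usp29 (left) and Zim1 (right) against that of Peg3, all in CPM on log axes, in the 10 primary (blue) and 9 cultured (red) clusters of at least 50 cells. The cultured clusters at 54.5 to 88.2 CPM of Peg3 are the lowest for both neighbours and the primary clusters are the highest, while the order within a library is not strict: the cultured cluster at 258 CPM of Peg3 has the most Usp29 of the 9.

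Since p57KIP2 stops the cell cycle, the members were also compared between dividing cells (at least 10 UMIs of the S and G2M lists per 5000) and cells with 0 to 2 such UMIs. In the primary library (212 and 6804 cells) Plagl1 was at a ratio of 0.533 (0.488 to 0.581), Peg3 at 0.706 (0.658 to 0.756), Cdkn1c at 0.770 (0.707 to 0.836) and Dlk1 at 0.779 (0.744 to 0.815). With at least 5 such UMIs (1187 cells), the ratio of Cdkn1c was 1.03 (0.994 to 1.06) and that of Dlk1 1.00, and those of Plagl1 and Peg3 were 0.924 and 0.935, so the lower Cdkn1c and Dlk1 in dividing cells rests on the stricter threshold. In the cultured library (721 and 2759 cells) Cdkn1c was at 0.898 (0.741 to 1.08), Mest at 1.41 (1.35 to 1.48) and Igf2 at 0.670 (0.518 to 0.857). Dlk1 and Peg3 went the other way than in primary cells, at 1.19 (1.03 to 1.37) and 1.11 (1.03 to 1.19). Plagl1 was at 0.827 (0.726 to 0.939), Igf2r at 0.853 (0.768 to 0.946) and Sgce at 0.796 (0.651 to 0.968). Grb10 and Ndn were at 0.979 and 0.955, with intervals that held 1. In the cluster of dividing primary cells Cdkn1c was at 414 CPM, and in the dividing cultured cluster led by Aspm and Knl1 at 32.4 CPM.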

How the data were processed

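Per the labels and the study's methods, 20000 viable cells were prepared for the Chromium 3′ v3.1 kit. The deposited values are raw UMI counts per gene and barcode as whole numbers without normalisation, which the authors made with Cell Ranger 7.0.0 on mm10/GRCm38 (the submitters' notes also list GRCm39, and the annotation release is not given in the sources used here). Gene positions come from GENCODE M21 (GRCm38). The members, gene lists and tests were chosen with earlier results of these data known.

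Barcodes were kept from 500 genes and 1000 UMIs upwards if mitochondrial UMIs made up no more than 10%, giving 137148874 primary and 330129909 cultured UMIs. No doublets were removed, and Scrublet, which called 0 primary and 1 cultured doublet by its own threshold, had not worked. Counts were summed over the kept cells and scaled to 1000000 (CPM). For log2 ratios, cultured over primary, counts under 3 were raised to 3. Intervals are exact Poisson, Clopper-Pearson (shares) and conditional (ratios), at 95%. Clusters came from Leiden (scanpy 1.11.5, resolution 0.5, 10 components, 2000 variable genes) within each library. Scripts were tested on simulated data. Named genes are all members, listed genes with at least 10 CPM and a 4-fold difference, genes sharing a member's imprinted cluster, and the 3 most alike genes (at least 50 CPM in a cluster). Genes given as contrasts (relatives, Igf1r and the like) come from the lists without regard to size. Alternatives changed the filter, doublets, weighting, depth, scaling (TMM, edgeR 4.0.16), cell composition, fold and minimum level. The doublet setting left out the 1132 primary and 933 cultured barcodes of highest Scrublet score. Since Scrublet had not worked, these may not be the doublets, and that setting cannot show their effect.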

Additional observations from a re-analysis of the deposited data

How the results depend on the processing

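Under 10 alternative filters, weightings, depths and scalings, 4 members stayed at least 4-fold lower, 0 became 4-fold higher, and no member's log2 ratio changed sign. The log2 ratio of Dlk1 lay between -5.49 and -5.17, of Cdkn1c between -4.42 and -4.06, of Plagl1 between -3.58 and -3.30, of Peg3 between -2.56 and -2.16, of Mest between 1.12 and 1.42 and of Grb10 between 0.03 and 0.24. The members' median log2 ratio moved from -0.60 to -0.52 without the 5% of barcodes with the most UMIs, -0.46 with each barcode thinned to 5000 UMIs, -0.40 with each barcode weighing the same and -0.80 with TMM scaling, which also lowered the median of all genes from 0.37 to 0.16. At 2-fold in place of 4-fold, 4 members were lower and 1 (Mest) higher, with 12.5% of all genes lower and 27.2% higher. The other imprinted genes that were apart numbered 7 of 22 at 4-fold (5.73% of all genes lower, 10.6% higher) and 11 of 22 at 2-fold. With a minimum of 1 CPM they numbered 13 of 33 (7.48% of all genes lower, 12.6% higher). With no minimum they numbered 17 of 40 (11.2% lower, 11.6% higher). Wider rules raise such counts by construction. Without thinning, 5 rather than 8 members had a lower share of cells with a UMI in culture. The log2 ratio of Cdkn1c in dividing over other primary cells turned from -0.38 to 0.039 with at least 5 UMIs of the cycle lists, and the cause was not tested.

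No paired analysis was possible because each group is 1 library. For the same reason no replicate was left out, and differences between animals, sexes, preparations and runs cannot be told apart from culture. Depth limits genes with few UMIs, such as Magel2 in culture, and shares of cells for weakly expressed members.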

Other observations

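Lists of fetal growth regulators and of genes for the upkeep of imprints are set here against the 5.73% of all genes that were 4-fold lower and the 10.6% that were 4-fold higher. Of 5 fetal growth regulators with at least 10 CPM, 2 were at least 4-fold higher in the cultured library and 0 lower: Hmga2, a chromatin protein of embryonic mesenchyme, stood at 55.0 and 606 CPM, and Igf2bp1, an RNA-binding protein named for its binding of Igf2 mRNA, at 4.24 and 27.5 CPM. Ezh2 was level at 39.6 and 42.0 CPM. Of 10 genes of imprint maintenance, 1 was at least 4-fold higher and 1 lower, a share of 20% near the 16.3% of all genes that were 4-fold apart in either direction. Uhrf1, which guides Dnmt1 to newly copied DNA and is also on the S phase list, was at 1.84 and 12.0 CPM, and Tet1, an enzyme that oxidises methylated cytosine, at a log2 ratio of -4.53 with 0.863 CPM in culture. Dnmt1, the maintenance methyltransferase, was at 19.4 and 44.0 CPM, Dnmt3a, a methyltransferase for new marks, at 84.1 and 23.6 CPM, and Tet2 at 79.9 and 26.3 CPM. Zfp57, which protects imprints, was at 4.78 and 11.4 CPM, and Trim28, Ctcf and Zfp445, which also protect or read them, were within 2-fold.

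The 5460 cultured barcodes that failed the filter held 6298068 UMIs in all, with a median of 775 per barcode. In them Dlk1 was at 42.6 CPM, Cdkn1c at 16.0 CPM, Peg3 at 167 CPM, Mest at 329 CPM and Plagl1 at 79.5 CPM. Each of these was below the level in the kept cultured cells. The others were above it: Grb10 at 778 CPM, Igf2r at 186 CPM, Ndn at 73.2 CPM, Sgce at 59.7 CPM and Igf2 at 31.3 CPM. For Plagl1 (72.7 to 86.8) and Igf2 (27.1 to 36.0) the interval held the kept level. The 13 cultured cells with blood markers had Peg3 at 338 CPM (286 to 396), above the library's 216 CPM, and Dlk1 at 6.67 CPM.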
